A study of Homo sapiens with 12 samples.

Results

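The core sites are merged stretches of RNA that overlap a site called protected by protein in every replicate of both nuclease treatments. Of the 292602 sites in the list that the authors merged over all replicates, 1972 (0.674%) overlapped a site in each of the 6 replicate lists, by at least 1 nt and on the same strand. The mitochondrial genome and the unplaced contig Un_gl000220 were left out of this count, and they held a further 23 of 228 and 44 of 186 merged sites with the same property. The members were chosen by the calls themselves, that is, by presence in the 6 lists, so their recurrence, length and score are given as descriptions and carry no test.

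The cells were HEK293T, an established line of human embryonic kidney origin, with no genetic change between groups. In protein interaction profile sequencing, RNA shielded by bound protein survives nuclease digestion of a cell lysate and is sequenced. All 12 libraries came from cells fixed for 10 minutes in 1% formaldehyde, which 125 mM glycine then quenched. Lysates were cut with RNase ONE, which cleaves single-stranded RNA (ssRNase), or RNase V1, which cleaves double-stranded RNA (dsRNase). In footprint libraries the nuclease acted while proteins were still attached. In digestion controls, 1% SDS and proteinase K removed the proteins first. Cross-links were reversed for 2 hours at 65 °C. These 4 groups had 3 replicates each, and each replicate list sets a footprint library against the equally numbered digestion control for that nuclease. The labels do not say whether replicates are separate cultures. The p-values therefore measure only the spread between these libraries, which may be technical.

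RNA-binding proteins protect RNA in different ways. Some dock on a short unpaired motif, some grip a folded element, and some RNAs are packed along their length with protein. A nuclease for unpaired RNA leaves paired stretches intact as well as protein-covered ones, and a nuclease for paired RNA does the reverse. The digestion control shows what survives through structure alone. The lists give positions and a score for each site but no read counts, so the depth is unknown, and a stretch missing from a list may be unprotected or too thinly sequenced. Sites are given by their hg19 positions, the build of the lists. Genes and bases at these positions were not analysed here.

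The 6 lists usually met on common bases within a core site. At least 1 base lay in all 6 lists in 1438 core sites (72.9%), and the median over all core sites was 20 nt, with quartiles of 0 and 33 nt. In 993 sites (50.4%) the common bases came to at least 20 nt. The remaining 534 core sites had a site in every list but no base shared by all of them. On their best base 394 of these had 5 lists, 127 had 4 and 13 had 3. Altogether 41384 of 258689 core bases (16.0%) lay in all 6 lists. Most sites with common bases, 1258, had them in 1 stretch, and 180 had several.

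The 10 core sites with the most common bases had 113 to 230 nt in all 6 lists, and all were on the minus strand. The first was chr5:79946317-79946866, with 230 nt in 3 stretches. Of its 550 nt, ssRNase covered 44.2%, 46.0% and 43.3% in the 3 lists and dsRNase 99.3%, 95.3% and 94.5%. The next, chr11:10530194-10530592, had 200 nt, of which 132 nt formed 1 stretch. Its ssRNase cover was 57.1%, 51.1% and 50.9% and its dsRNase cover 98.5%, 99.5% and 99.5%. At both, dsRNase left nearly the whole site and ssRNase a smaller part, and the groups did not overlap. Whether reads at these sites also fit other places, including the sequences left out above, was not tested.

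The site chr17:33478111-33478365 had the same order, with 115 nt in all 6 lists. Its ssRNase cover was 63.5%, 58.0% and 51.4% and its dsRNase cover 98.8%, 86.7% and 82.7%. At chr14:50329266-50329525, with 113 nt in all 6 lists, the order was the opposite. There ssRNase cover was 87.3%, 88.8% and 84.6% and dsRNase cover 56.5%, 57.7% and 57.3%. The groups did not overlap at either site, so a large common stretch occurred with either nuclease ahead.

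A pair of sites on chromosome 17 had nearly the same profile. The site chr17:18967223-18967449 was covered to 100%, 82.4% and 81.5% with ssRNase and to 75.3%, 70.9% and 70.5% with dsRNase, and 125 nt lay in all 6 lists. The site chr17:19093332-19093561 was covered to 92.6%, 79.6% and 77.8% with ssRNase and to 75.2%, 73.5% and 70.9% with dsRNase, and 130 nt lay in all 6 lists. In both, the ssRNase lists lay above the dsRNase lists. No source used here states how reads that fit several places were assigned, and whether these sites share reads was not tested. Elsewhere, 8 core sites in 4 pairs had sites at exactly the same offsets from their 5′ end in all 6 lists as the other of the pair. One such pair, on the minus strand, was chr1:31408515-31408634 and chr1:31421944-31422063, with 115, 74 and 120 nt covered with ssRNase and 84 nt in each dsRNase list. The count of 1972 may therefore hold repeated copies, and near-copies with slightly different offsets were not counted.

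The other 4 of these 10 sites had overlapping groups. At chrX:73046626-73047103, with 175 nt in all 6 lists, ssRNase cover was 92.3%, 77.0% and 87.0% and dsRNase cover 71.3%, 54.8% and 86.6%. At chr1:149812294-149812776, with 151 nt, it was 87.0%, 47.0% and 50.7% with ssRNase and 84.1%, 80.1% and 84.7% with dsRNase. At chrX:73040869-73041727, with 123 nt, dsRNase replicate 1 (47.4%) lay above ssRNase replicate 3 (46.6%). At chrX:73045481-73046212, with 142 nt, dsRNase replicate 3 (67.9%) lay above ssRNase replicate 2 (60.5%).

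Of the 1972 core sites, 890 (45.1%) had another core site within 10000 nt on the same strand, and they formed 273 clusters. The other 1082, the larger part, stood alone at this distance. Of the 32 clusters with 5 or more core sites, 29 were on the minus strand. In fixed stranded windows of 10000 bp, the 10 windows with the most core sites held 129 of them (6.54%). Of these windows 3 lay in the largest cluster, 2 in the second and 1 each in 5 others.

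The largest cluster had 61 core sites between positions 73039055 and 73071831 of chromosome X (minus strand). They made up 45.2% of this span of 32777 nt, and 1751 of their 14828 bases lay in all 6 lists. The ssRNase lists covered 88.7%, 52.2% and 68.5% of the core bases and the dsRNase lists 39.0%, 33.5% and 58.0%. The groups overlapped, since dsRNase replicate 3 lay above ssRNase replicate 2. Mean cover was higher with ssRNase at 53 of the 61 sites. A stretch of 2228 nt within the cluster held no site of any list.

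The next cluster had 34 core sites between positions 65190290 and 65212993 of chromosome 11 (plus strand). Core sites made up 60.1% of its 22704 nt. The ssRNase lists covered 95.2%, 59.5% and 79.1% of the core bases and the dsRNase lists 13.9%, 23.6% and 31.2%. The groups did not overlap, and mean cover was higher with ssRNase at 34 of 34 sites. Of the 13655 core bases, 7231 lay in all 3 ssRNase lists, 854 in all 3 dsRNase lists and 484 in all 6, and 18 of the sites had a base in all 6. The dsRNase lists thus covered little of these sites and also differed among themselves in where they did.

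A nearby cluster on the same strand, from 65266685 to 65273568, had 12 core sites that made up 80.2% of its span. The ssRNase lists covered 97.2%, 51.0% and 72.7% of its core bases and the dsRNase lists 11.3%, 11.9% and 25.3%, without overlap. In all 6 lists lay 131 of 5519 core bases. The dsRNase lists had 31, 36 and 45 separate sites within these core sites, and the ssRNase lists 19, 36 and 42. The ssRNase sites covered 5364, 2816 and 4011 core bases and the dsRNase sites 626, 657 and 1397. ssRNase replicates 2 and 3 thus had about as many sites as the dsRNase lists but covered more bases. Whether dsRNase sites lay inside ssRNase sites was not tested.

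**Figure D1:**
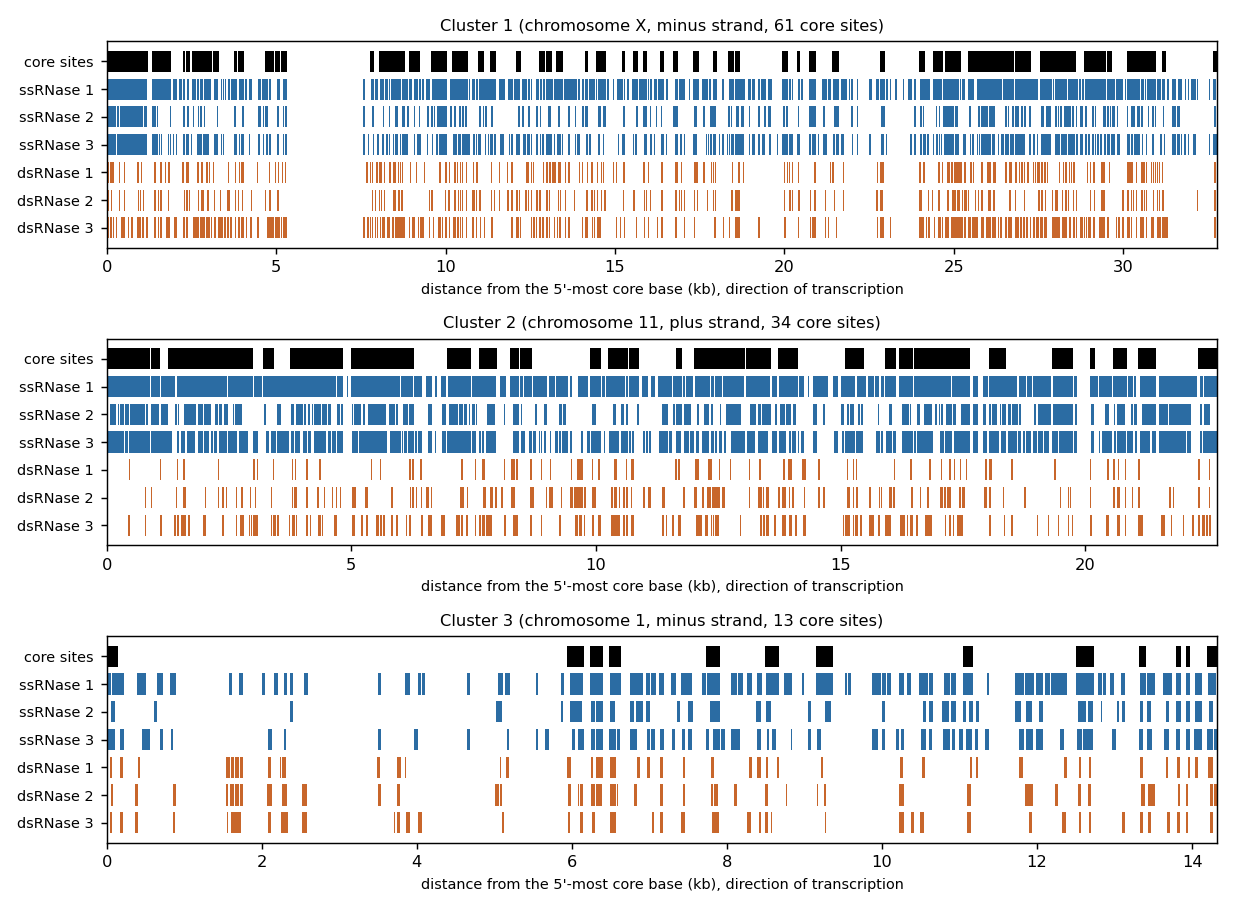
Sites of each replicate list (blue, ssRNase; orange, dsRNase) and core sites (black) along the 3 clusters with the most core sites, by distance in kb from the core base nearest the 5′ end. In the cluster on chromosome 11 the ssRNase tracks, most of all replicate 1, are made of longer blocks than the dsRNase tracks. The empty stretch in the cluster on chromosome X is 2228 nt long.

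Clusters differed in which nuclease covered more. The cluster of 13 core sites on the minus strand of chromosome 1, from 35644378 to 35658704, was covered to 91.3%, 58.5% and 63.9% with ssRNase and to 32.1%, 41.0% and 32.5% with dsRNase. Compact clusters of 9 sites each on chromosome 11 (62620374 to 62623104) and chromosome 1 (173833253 to 173836938), both on the minus strand, had a base in all 6 lists at 9 of 9 sites. The first had 74.3% ± 9.82 with ssRNase and 65.8% ± 4.81 with dsRNase, and the second 64.1% ± 20.3 and 56.2% ± 1.78 (SD, n = 3 lists each), with overlapping groups in both.

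In the cluster of 6 core sites on the minus strand of chromosome 7, from 5566780 to 5569059, dsRNase cover was higher on average. The ssRNase lists covered 72.4%, 40.6% and 40.1% of its core bases and the dsRNase lists 61.5%, 73.0% and 73.4%. The groups overlapped through ssRNase replicate 1. The cluster of 5 core sites on the minus strand of chromosome 11, from 10529560 to 10531000, stood furthest toward dsRNase. Its cover was 61.2%, 52.3% and 58.1% with ssRNase and 96.5%, 96.8% and 97.7% with dsRNase, a difference of means of -39.8 points. It holds the site with 200 nt in all 6 lists described above.

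Over the 32 clusters with 5 or more core sites, which hold 294 core sites (14.9%), mean cover was higher with ssRNase in 27 and with dsRNase in 5. All ssRNase lists lay above all dsRNase lists in 15 clusters, the reverse held in 1, the cluster just described, and the lists overlapped in 16. The difference of means ran from -39.8 to 57.4 points.

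**Figure D2:**
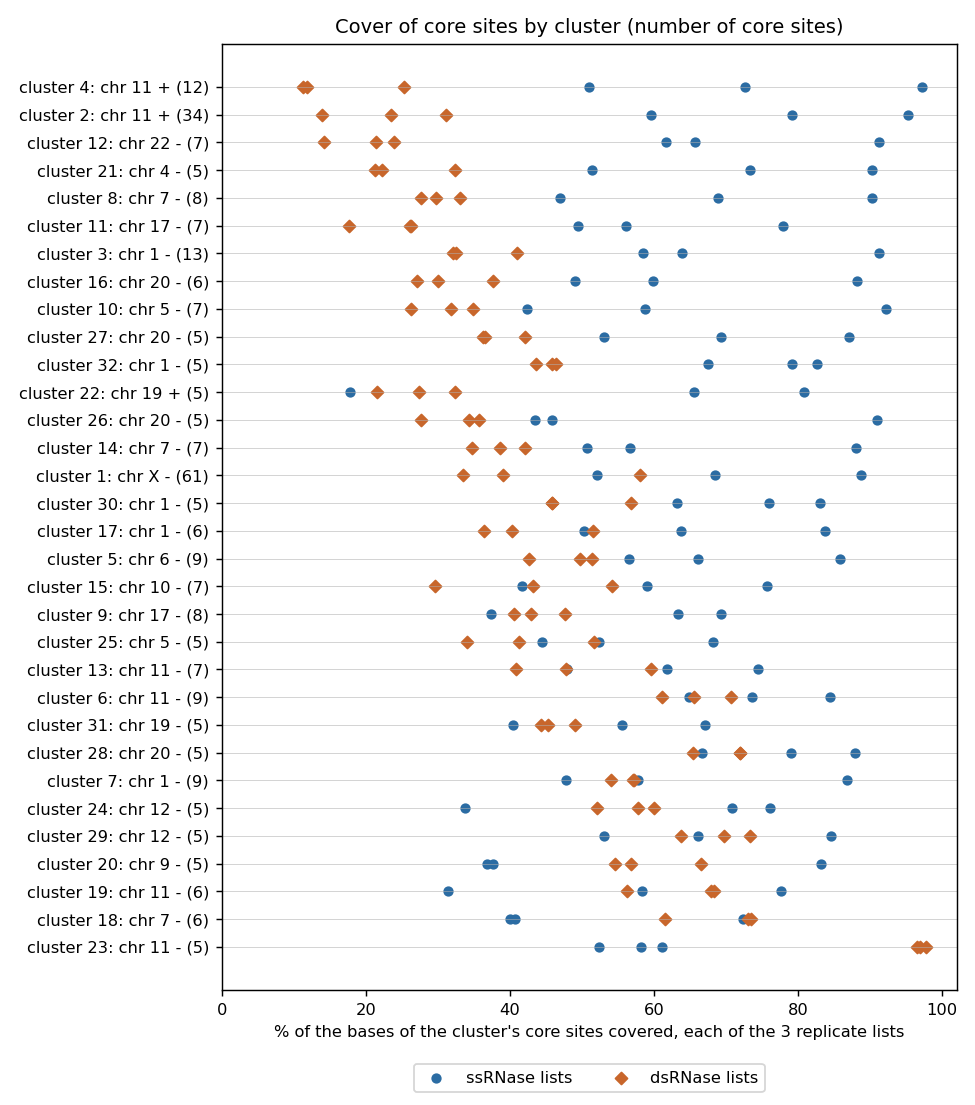
Percent of the bases of a cluster's core sites covered by each of the 3 ssRNase lists (blue circles) and 3 dsRNase lists (orange diamonds), for the 32 clusters with 5 or more core sites, with the number of core sites in brackets. Both clusters on the plus strand of chromosome 11 stand at the top, with dsRNase cover of 31.2% or less; in the 5 at the bottom the dsRNase mean was the higher one, and in the last, with dsRNase cover of 96.5% or more, the groups did not overlap.

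Over all core sites, the comparison of nucleases asked how much of a site each left protected. The ssRNase lists covered on average 82.0%, 59.3% and 71.3% of a core site's length and the dsRNase lists 47.7%, 49.3% and 50.4%. The means were 70.9% ± 11.3 with ssRNase and 49.1% ± 1.38 with dsRNase (SD, n = 3 lists each), a difference of 21.7 points. This is a description, since cover is measured on the same calls that chose the sites. It was not particular to the core. Over the 35029 merged sites that both nucleases had called, the median difference was 25.3 points, against 22.7 points in core sites. The groups did not overlap, but the ssRNase lists spread widely, with replicate 2 the lowest. Without the 3 largest clusters, the covered share of all core bases was 69.3% ± 13.0 with ssRNase and 44.3% ± 1.46 with dsRNase, against 69.8% ± 13.6 and 43.0% ± 2.32 with them (SD, n = 3 lists each).

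Single core sites lay on both sides. Mean cover was higher with ssRNase at 1610 (81.6%), higher with dsRNase at 356 (18.1%) and equal at 6. All 3 ssRNase lists lay above all 3 dsRNase lists at 791 core sites (40.1%), against 20.6% of the 35029 merged sites that both nucleases had called. The reverse held at 85 core sites (4.31%), against 1.36%. Both nucleases had called each of these sites, so absence from 1 ssRNase list already bars the first order. In the same way, absence from 1 dsRNase list bars the reverse. Core sites are by rule absent from none, so these shares are not compared further.

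By limma across the 35029 sites, 0 core sites passed an adjusted p of 0.05 (0% of all tested sites did), and the smallest adjusted p among core sites was 0.366. Unadjusted p was below 0.05 at 118 core sites (5.98%, against 13.1% of all tested), 115 of them higher with ssRNase. The median difference was 22.7 points in core sites and 25.3 points in all tested sites. This count and its direction turned on the sites tested and the scale. With the 54067 merged sites in at least 3 lists tested instead, 619 core sites passed by limma (31.4%, against 61.2% of all tested). Of these 559 (28.3%) were higher with ssRNase, against 59.1% of all tested, and 60 (3.04%) with dsRNase, against 2.13%. A site can enter this set through all 3 lists of 1 nuclease alone, so the filter itself gives such sites a difference. The shares of all tested are therefore no measure for core sites. The 619 calls also rest on a variance estimate shared with those sites. With each list's bases taken per 1000000 of its own site bases, on a log2 scale, 314 passed (15.9%, against 3.51% of all tested). On this scale 1 was higher with ssRNase (0.00285% of all tested were) and 313 with dsRNase (15.9%, against 3.51%). The scale divides by list size, so the same number of covered bases gives a higher value in the smaller dsRNase lists. In a simulated table the test passed none of the sites given a large difference, so a count of 0 here says little.

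The largest difference toward ssRNase was at chr7:72335757-72336196 on the plus strand. It was covered to 96.1%, 85.0% and 96.1% by the ssRNase lists and to 5.23%, 3.41% and 5.23% by the dsRNase lists. The next 4 were chr11:65190290-65191182 (plus), at the 5′ edge of the larger cluster on chromosome 11, chr2:148689381-148689590 (plus), chr9:137029620-137029679 (minus) and chr11:75111428-75111489 (plus). Their differences were 84.4 to 86.1 points. These 5 sites had at most 8 nt in all 3 dsRNase lists, and the same number in all 6.

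The largest difference toward dsRNase was at chr6:122773196-122773243 on the minus strand. Cover was 14.6%, 12.5% and 6.25% with ssRNase and 89.6%, 91.7% and 81.2% with dsRNase. The next 4, all on the minus strand, were chr20:55934188-55934247, chr8:70602286-70602494, chr1:108113195-108113249 and chr9:35657744-35658022. At the last, a site of 279 nt, ssRNase cover was 37.99%, 39.4% and 47.7% and dsRNase cover 97.8%, 94.3% and 96.1%, and 97 nt lay in all 6 lists. The groups did not overlap at any of these 10 sites, and none passed by limma (adjusted p 0.366 to 0.402).

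The 10 longest core sites were 732 to 1213 nt long, and ssRNase covered more of each on average. The longest, chrX:73070619-73071831 on the minus strand, was the one nearest the 5′ end of its cluster. The ssRNase lists covered 98.6%, 88.8% and 95.1% of it and the dsRNase lists 24.3%, 18.5% and 42.7%. Its 88 nt in all 6 lists fell into 6 stretches, of which the longest was 31 nt. Of the 10, 6 lay in both clusters on the plus strand of chromosome 11, 3 in the cluster on chromosome X and 1 at chr5:68927101-68927842 on the minus strand. Mean ssRNase cover over the 10 was 60.8% to 94.2% and mean dsRNase cover 2.61% to 47.6%.

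Cover fell with length in the 3 dsRNase lists and in ssRNase replicates 2 and 3, but not in ssRNase replicate 1. In core sites of 35 to 75 nt, mean cover was 80.02% with ssRNase and 64.9% with dsRNase, and 92.8% of these sites had a base in all 6 lists. In the longest of 4 length classes, cut at the quartiles, it was 67.1% and 35.8%, and 58.5% had such a base. ssRNase replicate 1 stayed between 79.1% and 84.3% over these classes. From the shortest class to the longest, ssRNase replicate 2 went from 75.6% to 49.7% and ssRNase replicate 3 from 80.8% to 67.3%. The dsRNase lists went from 63.9%, 66.6% and 64.1% to 33.0%, 35.2% and 39.2%. A merged site spans every site it joins, so length and cover are linked by construction. For the same reason the median length was 39 nt for merged sites in 1 list, 81 nt for those in 5 lists and 107.5 nt in the core (range 35 to 1213 nt).

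**Figure D3:**
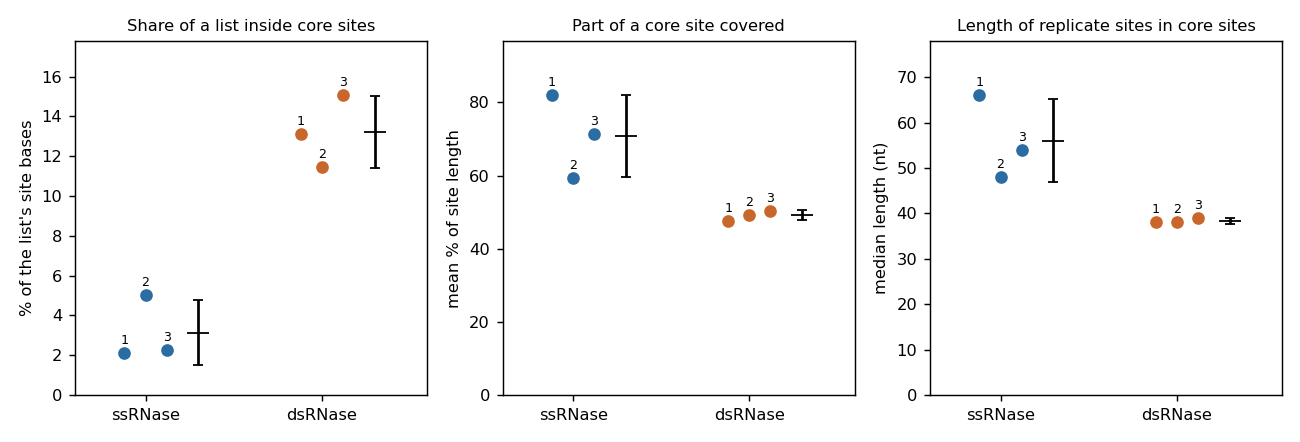
Values of each replicate list (numbered points) with mean and SD (black): the percent of a list's site bases inside core sites, the mean percent of a core site's length covered, and the median length in nt of replicate sites inside core sites. The dsRNase lists sit higher in the first panel (11.4% to 15.1% against 2.12% to 5.00%) and lower in the others.

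Core sites made up more of each dsRNase list. With dsRNase they held 13.1%, 11.4% and 15.1% of a list's site bases, and with ssRNase 2.12%, 5.00% and 2.24%. The difference was -10.1 points (ssRNase minus dsRNase). It is a description, since the rule asks every list for the same sites: 2592, 2512 and 2774 ssRNase sites and 2605, 2719 and 2653 dsRNase sites lay in the core. In bases the order was the reverse, with 106000, 110109 and 117829 core bases with dsRNase and 215264, 144793 and 181310 with ssRNase. The share thus follows the size of the list. The dsRNase lists had 23686, 28127 and 21265 sites and the ssRNase lists 209581, 57216 and 171795. Of the 5384 sites in all 3 dsRNase lists 36.6% were core, and of the 37364 in all 3 ssRNase lists 5.28%.

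Replicate sites inside core sites were longer than the others of their list. Their median length was 66, 48 and 54 nt with ssRNase, against 43, 44 and 42 nt elsewhere in the list. With dsRNase it was 38, 38 and 39 nt, against 33, 33 and 34 nt. They also ranked high by the authors' score, which has no stated scale and served here as a rank inside each list. Their median score lay at percentile 92.8, 73.9 and 88.7 of the ssRNase lists and at percentile 77.6, 78.3 and 77.5 of the dsRNase lists.

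To compare where protection began and ended, the 896 core sites (45.4%) with exactly 1 site in every list were aligned by strand. Their median length was 58, 46.5 and 53 nt in the ssRNase lists and 40, 41 and 39 nt in the dsRNase lists. The dsRNase footprint was shorter at both ends, and more so at the 3′ end. Measured from the mean end of the 3 ssRNase lists, the 5′ end of the dsRNase lists lay 3.67, 3.33 and 3.67 nt toward the 3′ end (medians over sites). Their 3′ end had offsets of -7.83, -7.67 and -8.33 nt, toward the 5′ end.

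The ssRNase lists had 5′ offsets of -1, 1.67 and 0 nt and 3′ offsets of 0.67, -0.67 and 0 nt. The nucleases differed by 12.5 nt in median length, by -3.33 nt at the 5′ end and by 7.94 nt at the 3′ end (ssRNase minus dsRNase). These are descriptions, since the sites were chosen by the calls. Sites outside the core differed in length too, with median lengths averaging 43 nt over the ssRNase lists and 33.3 nt over the dsRNase lists. The 3′ end moved inward by 4.17, 4.33 and 4.67 nt more than the 5′ end in the dsRNase lists. The same order held on each strand, with 3′ offsets of -8.67 to -7.67 nt on the minus strand and -7.50 to -6.67 nt on the plus strand.

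**Figure D4:**
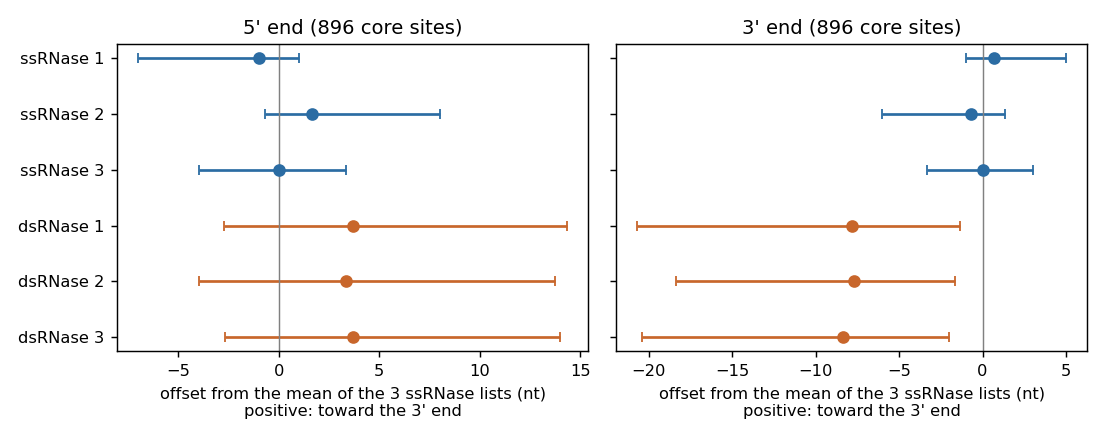
Offset in nt of the 5′ end and the 3′ end of each list's site from the mean of the 3 ssRNase lists, over the 896 core sites with 1 site in every list (point, median; bar, quartiles; positive values point toward the 3′ end). The dsRNase medians lie near 3.67 nt at the 5′ end and near -7.83 nt at the 3′ end in all 3 replicates.

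In 573 of these 896 sites (64.0%) the span of the 3 dsRNase sites lay inside that of the 3 ssRNase sites. In 48 (5.36%) it was the other way round, in 2 the spans were equal and in 273 (30.5%) they were shifted. Within a nuclease, the 5′ ends of the 3 lists had a median range of 11 nt with ssRNase and 7 nt with dsRNase, and the 3′ ends of 9 and 8 nt. All 3 lists shared the exact 3′ end at 63 sites with ssRNase and at 74 with dsRNase. All 6 lists shared the exact 5′ end at 1 site and the exact 3′ end at 2.

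Among merged sites that missed the core by 1 list, ssRNase replicate 2 was the list most often missing. Just outside the rule stood 4273 merged sites in 5 of 6 lists. Of these 1368 (32.0%) lacked ssRNase replicate 2, 61 lacked replicate 1 and 137 replicate 3. The dsRNase replicates 1, 2 and 3 were missing at 991, 707 and 1009 sites. Without ssRNase replicate 2 the rule gave 3340 sites, without dsRNase replicate 1 it gave 2963, and without dsRNase replicate 3 it gave 2981.

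Most core sites lay on the minus strand, which held 1538 of them (78.0%), against 57.7% of all merged sites. Core sites are not independent of each other, so no interval is given. The minus share was 56.7% for sites in 1 list, 57.4% in 3 lists, 71.5% in 4 and 76.8% in 5. It was above that of the merged sites on each of the 22 autosomes and on X. Sites in all 3 dsRNase lists had 77.0% on the minus strand and sites in all 3 ssRNase lists 58.8%. The whole dsRNase lists had 78.9%, 63.6% and 77.5% on it and the ssRNase lists 56.7%, 59.0% and 58.2%. The part of the lists' own strand balance in that of the core was not tested.

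**Figure D5:**
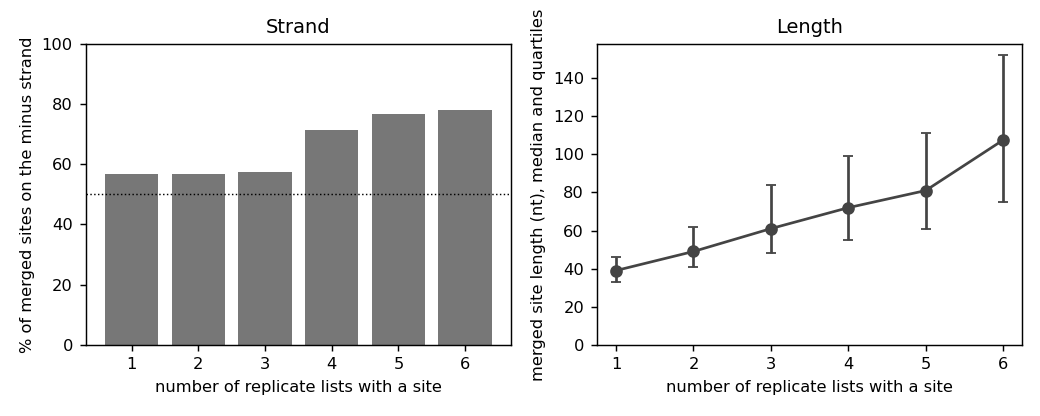
Share of merged sites on the minus strand (bars in percent, dotted line at even balance) and merged site length in nt (median with quartiles), by the number of replicate lists with a site. The minus share steps from 57.4% at 3 lists to 71.5% at 4, the first number that needs both nucleases, and is 78.0% in the core.

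Some core sites faced another site on the opposite strand. Any merged site lay opposite 185 core sites (9.38%), against 6.29% of all merged sites. Another core site lay opposite 24 core sites, and the share to expect for a set of this size was not computed. By chromosome, X and 11 had the largest shares of core sites among the numbered chromosomes and X, with 127 of 8981 merged sites (1.41%) and 182 of 16642 (1.09%). The largest cluster holds 61 of the 127. Chromosomes 18 and 8 had the smallest, with 14 of 3249 (0.431%) and 40 of 8803 (0.454%).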

How the data were processed

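Each replicate list holds sites called in a footprint library against its digestion control. Per the submitters' processing notes, cutadapt 0.9.5, TopHat2 2.0.9 and build hg19 were used. The caller is known only from the names of the deposited lists (CSAR). No source used here gives read filters, normalization or the handling of multi-mapping reads. The deposited score of a site is the authors' own. Positions were taken as deposited by the authors.

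Core sites were found by overlap of at least 1 nt on the same strand. The percent of each merged site covered by each list was computed, and nucleases were compared by limma 3.58.1 across 35029 sites (Benjamini-Hochberg, adjusted p of 0.05), tested on simulated data. Python 3.11.15 and scipy 1.17.1 were used. Named are the 10 longest sites, the 10 with the most bases in all 6 lists, the 5 largest differences in each direction (none passed) and the 10 leading windows. Values by cluster (those with 5 or more core sites), end offsets and their alternatives were chosen after seeing the data. Members and lists were chosen with earlier results of these data known. No genome or annotation of build hg19 was used here, so gene lists, location in genes, base composition and sequences are not reported.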

Additional observations from a re-analysis of the deposited data

How the results depend on the processing

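Of 73 alternatives over 10 results, 63 kept the result and 10 moved it. Among the 63 are replicate blocks on differences of means, which such a block cannot change. No difference between nucleases in list share, cover, length or end position changed sign, but the direction of most limma calls did. The core count of 1972 was 809 with only sites above the median score of each list, and 2033 to 3340 when 1 list was left out. The median of bases in all 6 lists was 29.0 with the higher-scoring sites. The minus share was 75.1% by bases. The share of core sites with another nearby was 26.0% within 1000 nt and 61.0% within 100000 nt. By limma, against 0, 619 core sites passed with sites in at least 3 lists tested (61.2% of all tested passed), 559 of them higher with ssRNase, and 314 on the log2 scale with 20 added to the bases per 1000000 (3.51% of all tested passed), 313 of them higher with dsRNase. The first set admits sites called by 1 nuclease alone. The log2 scale divides by a list's site bases, which were 10168003, 2896966 and 8080113 with ssRNase and 808912, 961859 and 782494 with dsRNase. The same number of covered bases thus gives a higher value with dsRNase. How far these settings account for the counts was not tested. Leaving out 1 list gave differences of -11.0 to -9.16 points in the share of a list, 16.2 to 27.5 points in cover, 9.75 to 15.5 nt in length, -4.67 to -2.33 nt at the 5′ end and 6.67 to 8.83 nt at the 3′ end, and 0 limma calls.

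The replicate numbers left no visible pairing in cover: deviations of same-numbered lists correlated at 0.0128, -0.00467 and 0.000681 across sites. This measure cannot tell whether same-numbered libraries came from 1 culture, which the labels do not state. With the number as a replicate block, limma again passed 0 core sites. The differences of 21.7 points in cover and -10.1 points in list share cannot change under such a block. The mean of the paired differences equals the difference of means. The lists hold no counts, so the depth behind an absent site is unknown. End offsets, lengths in core sites with 1 site in every list and their alternatives were added after seeing the data.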
